A study of Triticum aestivum with 20 samples.

Results

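The LTP3 cluster is the group of probe sets on the Affymetrix Wheat Genome array that carry the same cluster number in their identifiers as the probe set for LTP3, a gene for a lipid transfer protein. All probe sets with this number were taken, which gave 4 of the 28894 probe sets on the array. The LTP3 probe set, of the kind whose name ends in _x_at, is assigned to LOC543095 (LTP3, TaLTP3) on chromosome 5B. Ta.1282.2.S1_at and Ta.1282.2.S1_x_at are both assigned to LOC100037539 on chromosome 5A, and Ta.1282.3.S1_x_at to LOC778422 on chromosome 5D. The chromosomes are those of the RefSeq gene table for the wheat assembly IWGSC CS RefSeq v2.1. Only the 5B gene carries a lipid transfer protein name in the tables used here, and the other genes are called by their chromosome below. The 4 probe sets therefore stand for 3 genes, 1 on the group 5 chromosome of each wheat subgenome.

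Lipid transfer proteins are small secreted proteins with a cavity that holds a fatty acid or another lipid. Plant anthers make several of them, in part in the tapetum, the innermost layer of the anther wall, which feeds the developing microspores. In rice, a lipid transfer protein made in the tapetum is needed for the outer pollen wall and for the lipid bodies on the inner anther surface.

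The plants were BS366, a temperature-sensitive genic male sterile wheat line that is sterile in the cold and fertile as a control. All plants were vernalized in the field, and per the labels the treatments lasted 5 days, after which plants grew on at 20 °C with 12 h of light. Cold anthers came from 10 °C with 14 h (B) or 12 h (A) of light, and control anthers from 20 °C with 14 h (F) or 12 h (E) of light. For each condition 1 array was made at each of 5 anther lengths (1.5, 2.0, 2.2, 2.5 and 3.0 mm, used as stage names), which gave 20 arrays, 10 cold and 10 control. Other passages of the study give another temperature for the cold. The labels do not say whether arrays came from separate plants, so p-values measure the spread between these arrays. The arrays of a temperature and stage had unlike light, so this spread also holds any photoperiod effect that differs between stages or temperatures. The stage is an anther length, and the labels give no cytological stage for each array.

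The lower limit of the arrays decides what can be said of a gene that is off. The deposited values are log2 expression, with no detection calls in the table used. Every array had the same lowest value, 2.28, and array medians were between 6.14 and 6.46. A probe set was counted as on in an array when it was above the 60th percentile of that array, which was between 6.92 and 7.22. For 12103 of the 28894 probe sets, at least 3 arrays held exactly the same number, so a spread of 0 between such arrays is no measure of precision. The 2 control arrays of stage 3.0 stood apart from all others, with a correlation of 0.97 between them and of 0.55 to 0.71 with the other 18 arrays. Anthers are mixed tissue, and fewer cells of a type cannot be told apart from less RNA per cell.

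LTP3 itself lay near the lower limit in all cold arrays and was among the brighter probe sets in control arrays of stage 3.0. Its 10 cold values were between 2.41 and 2.51, with a median of 2.51, which is 0.13 to 0.23 above the lowest value of the array. In control anthers with 14 h of light, the values at the 5 successive stages were 2.51, 2.51, 5.28, 7.24 and 11.65, and with 12 h of light they were 2.51, 2.51, 3.73, 3.92 and 10.79. The 4 control arrays of stages 1.5 and 2.0 thus held the same value as most cold arrays, whereas the 6 control arrays from stage 2.2 onward were above every cold array. The number behind 2.51 was identical in 12 arrays, 8 of them cold and 4 of them early control arrays, and no other probe set held it. LTP3 was on in none of the 10 cold arrays and in 3 of the 10 control arrays, namely both of stage 3.0 and that of stage 2.5 with 14 h of light. The last of these was only 0.07 above the 60th percentile of its array. LTP3 was above the repeated value by 2.77 (14 h) and 1.22 (12 h) at stage 2.2 and by 1.41 in the 12 h array of stage 2.5, but below the 60th percentile in each, so it was raised and still dim. At stage 3.0, LTP3 was in percentiles 97.2 (14 h) and 94.6 (12 h) of the control arrays.

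The 5A gene was on from stage 2.2 in control anthers of both photoperiods. Ta.1282.2.S1_at had cold values between 3.60 and 5.65, with a median of 4.06. Its control values with 14 h of light were 4.45, 5.04, 8.66, 9.76 and 13.19 at the 5 stages in order, and with 12 h of light 5.26, 3.999, 7.31, 8.35 and 12.61. All 6 control arrays from stage 2.2 onward were above all cold arrays and above the 4 earlier control arrays. Ta.1282.2.S1_x_at followed the same course, with cold values between 3.59 and 6.44 (median 4.84). Its control values were 5.29, 5.65, 8.97, 10.33 and 13.60 with 14 h of light and 5.64, 4.78, 8.06, 8.65 and 13.52 with 12 h of light. Again the 6 later control arrays did not overlap with any other array. Both probe sets were on in 0 of 10 cold arrays and in 6 of 10 control arrays, those of stage 2.2 onward. The 12 h array of stage 2.2 was the nearest to the limit, 0.16 above the 60th percentile for Ta.1282.2.S1_at and 0.91 above it for Ta.1282.2.S1_x_at. The 2 probe sets share a target gene, and their values correlated at 0.996 over the 20 arrays, so they are not 2 independent readings.

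The 5D gene (Ta.1282.3.S1_x_at) held an intermediate place. Its cold values were between 2.81 and 4.08, with a median of 3.91. Its control values were 3.96, 4.29, 7.28, 9.08 and 13.07 with 14 h of light and 3.96, 3.66, 6.07, 6.52 and 12.66 with 12 h of light. The later control arrays were above all cold and early control arrays, as for the other members. In the cold, the 5D gene was on in 0 of 10 arrays, and in the controls in 4 of 10, both of stage 3.0 and the 14 h arrays of stages 2.2 and 2.5. The 14 h array of stage 2.2 was 0.10 above the 60th percentile, and the 12 h arrays of stages 2.2 and 2.5 were 1.08 and 0.69 below it. One value, 3.96, was repeated exactly in 5 arrays, 3 cold and 2 early control, and arrays below it existed, so it was not a floor for this probe set. No member was at the array's lowest value in any array.

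**Figure D1:**
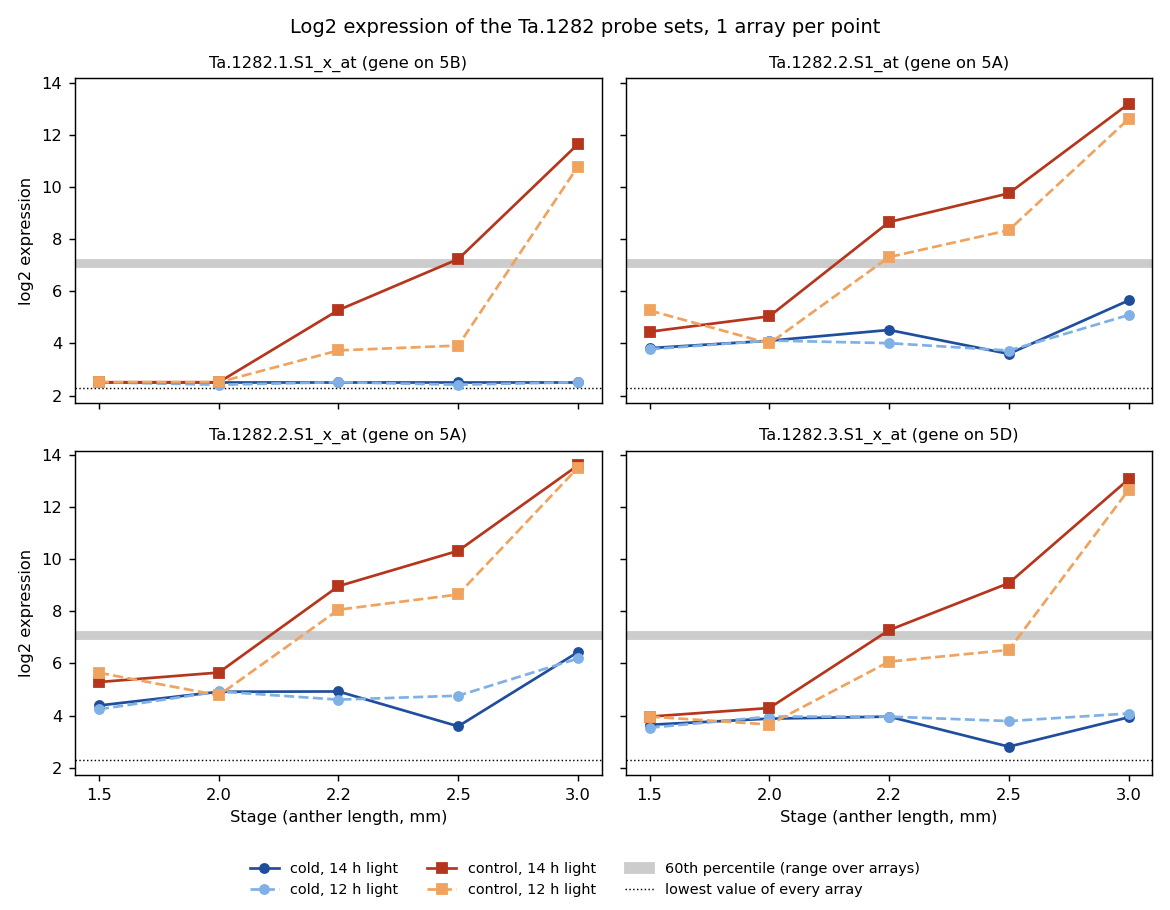
Log2 expression of the 4 probe sets of the LTP3 cluster against stage (anther length in mm), 1 array per point, for cold anthers with 14 h and 12 h of light and control anthers with 14 h and 12 h of light. The grey band is the range of the 60th percentile over the arrays (6.92 to 7.22) and the dotted line is the lowest value of every array (2.28). No cold point reaches the band, and the control points of stage 3.0 lie between 10.79 and 13.60.

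The pattern in which all 6 later control arrays were above all 10 cold and all 4 earlier control arrays was found for 4 of 4 members, and for 664 of the 13805 probe sets tested (4.81%). Only probe sets that were on in both arrays of some group were tested. All 4 members passed this filter through control anthers alone, LTP3 and the 5D gene through stage 3.0 only and the 5A probe sets through each group from stage 2.2 onward. That all passed, and that all were high in control anthers of stage 3.0, therefore says nothing about them. Counts of members in comparisons with late control anthers carry the same limit, and the 4 probe sets stand for 3 genes. Such counts below describe the members and do not test them against all probe sets.

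Between successive stages in control anthers, members of the cluster rose at 2 steps, that to stage 2.2 and that to stage 3.0. The steps were tested with limma (Benjamini-Hochberg over 13805 probe sets), and a member was called when its adjusted p was below 0.05 and it changed 2-fold or more. From stage 1.5 to stage 2.0 no member was called, and the log2 changes were between -0.34 and 0.01. None of the 13805 probe sets tested passed at this step either (0%), while 971 had an unadjusted p under 0.05. At the next step, stage 2.2 against stage 2.0, 3 of 4 members rose, against 3.51% of all probe sets. The 5A gene rose by 3.47 log2 units on Ta.1282.2.S1_at (limma, adjusted p = 0.000945) and by 3.30 on Ta.1282.2.S1_x_at (adjusted p = 0.00224), and the 5D gene by 2.70 (adjusted p = 0.0222). LTP3 differed by 2.00 and was not called (limma, adjusted p = 0.106). With dim values raised to the 40th percentile of each array, the 5D gene differed by 1.09 and was not called (limma, adjusted p = 0.228). Its call was also lost without both control arrays of stage 3.0 and the filter (limma, adjusted p = 0.0529). Leaving out single arrays gave between 2 and 4 called members at this step, as LTP3 passed without either control array of stage 2.5 and the 5D gene was lost without either control array of stage 2.0 or the 14 h array of stage 2.2. At stage 2.5 against stage 2.2 the differences were alike, between 0.97 and 1.13 for the 4 probe sets, and none was called. For LTP3 this value rested on a pair of arrays far apart, and it was 2.59 without the 12 h control array of stage 2.5 (limma, adjusted p = 0.0138) and -0.44 without the 14 h one. The 5D gene likewise gave 2.34 (limma, adjusted p = 0.0264) and -0.09. Of all probe sets, 0.00724% were called higher at that step.

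In the means of both photoperiods, the last step was the largest for every member, whereas with 14 h of light alone the step to stage 2.2 was slightly larger for both 5A probe sets. At stage 3.0 against stage 2.5, 4 of 4 members rose in control anthers, where 7.98% of all probe sets did. LTP3 and the 5D gene were tested only because they were high in control anthers of stage 3.0. The count is therefore no test of the cluster against that share. LTP3 gained 5.64 log2 units (limma, adjusted p = 4.33e-05), the 5D gene 5.06 (adjusted p = 3.32e-05), and the 5A gene 3.85 on Ta.1282.2.S1_at (adjusted p = 3.07e-05) and 4.07 on Ta.1282.2.S1_x_at (adjusted p = 3.42e-05). Over the whole series of stages, 3.0 against 1.5, the members were higher by 8.04 to 8.90 log2 units in control anthers, with a median of 8.40 beside a median of -0.13 over all probe sets tested, of which 13.5% were called higher.

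In cold anthers, no member was called higher at any of the 4 steps between successive stages. The share of all probe sets called higher at these steps was 0.449% at stage 2.0 and 0% at the later ones. LTP3 was flat, and its value in cold anthers of stage 3.0 was equal to that in cold anthers of stage 1.5. The 5A gene departed from this. On Ta.1282.2.S1_at the cold arrays of stage 3.0 had 5.65 (14 h) and 5.09 (12 h), above the highest of the other 8 cold arrays, 4.52. On Ta.1282.2.S1_x_at they had 6.44 (14 h) and 6.19 (12 h), above 4.93, the highest of the others. This held for the 2 probe sets of the 5A gene and for neither LTP3 nor the 5D gene, and for 3.35% of all probe sets tested. Cold anthers of stage 3.0 were higher than cold anthers of stage 1.5 by 1.57 on Ta.1282.2.S1_at (limma, adjusted p = 0.0363) and by 2.00 on Ta.1282.2.S1_x_at (limma, adjusted p = 0.0193), and 4.88% of all probe sets were called higher in that comparison. The 5D gene differed by 0.42 there (limma, adjusted p = 0.664). Even so, the 5A probe sets were off in the cold arrays of stage 3.0, at -2.07 and -1.27 relative to the 60th percentile on Ta.1282.2.S1_at and -0.97 and -0.49 on Ta.1282.2.S1_x_at. Neither call held with dim values raised to the 40th percentile of each array (limma, adjusted p = 0.917 and 0.152), and between 0 and 2 members were called when single arrays were left out.

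Cold anthers were then compared with control anthers at each stage, to find from which stage a difference could be measured. No member was called at the 2 early stages, and the cluster was lower in the cold from stage 2.2. The number of members called lower was 0, 0, 3, 4 and 4 of 4 at stages 1.5, 2.0, 2.2, 2.5 and 3.0, where 0.246%, 0%, 7.47%, 10.6% and 13.3% of all probe sets were called lower. The median change over the 4 members was -0.71, -0.17, -3.22, -4.91 and -8.12 at those stages, beside medians over all probe sets of 0.03, 0.00, 0.11, -0.05 and -0.00. The members passed the filter through late control anthers alone, so the late counts and medians describe them and are no test against all probe sets. The thresholds named in the study (2-fold and an unadjusted p under 0.05) were also set on this pooled fit of all 20 arrays. The 2 probe sets of the 5A gene then passed as lower at stage 1.5, with changes of -1.06 and -1.15. Of all probe sets 1.72% passed. The adjusted p of the 2 probe sets in limma was 0.530 and 0.527. The study itself kept genes common to the comparisons A against E and B against F. Between B and F (14 h) the differences at stage 1.5 were -0.63 and -0.90, less than 2-fold.

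At stage 2.2 the 5A gene was lower in the cold by 3.72 ± 0.46 log2 units (SE) on Ta.1282.2.S1_at (limma, adjusted p = 0.000314) and had a change of -3.75 ± 0.49 on Ta.1282.2.S1_x_at (limma, adjusted p = 0.000456). The 5D gene fell by 2.72 ± 0.61 (limma, adjusted p = 0.00931). LTP3 was 2.51 and 2.51 in cold anthers against 5.28 and 3.73 in control anthers (14 h and 12 h). The difference of -1.995 ± 0.70 was not called (limma, adjusted p = 0.0615), although the arrays did not overlap. At the thresholds named in the study, set on the same pooled fit, LTP3 passed at this stage too (limma, unadjusted p = 0.0143). Of all probe sets 8.57% passed. The call of LTP3 turned on the setting: adjusted p was 0.0371 with a photoperiod term for each temperature and 0.0051 or 0.0050 when the 12 h or the 14 h control array of stage 2.5 was left out, where LTP3 had its widest spread. The call of the 5D gene was lost without the 14 h cold array (adjusted p = 0.0730) or the 14 h control array (adjusted p = 0.0540) of that stage. With dim values raised to the 40th percentile of each array, LTP3 showed no difference at stage 2.2 (0.00) and the 5D gene one of -1.11 (limma, adjusted p = 0.158).

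At stage 2.5 all 4 probe sets were called lower in the cold. LTP3 had 2.51 (14 h) and 2.42 (12 h) in cold anthers against 7.24 and 3.92 in control anthers, a change of -3.11 ± 0.70 (limma, adjusted p = 0.00606). With 14 h of light the difference was -4.73, and with 12 h of light LTP3 fell by 1.50. With dim values raised to the 40th percentile the change was -1.01 (limma, adjusted p = 0.0583). The 5D gene had 2.81 and 3.79 in cold anthers against 9.08 and 6.52 in control anthers, a change of -4.50 ± 0.61 (limma, adjusted p = 0.00027). The 5A gene changed by -5.39 ± 0.46 on Ta.1282.2.S1_at (adjusted p = 9.83e-06) and by -5.31 ± 0.49 on Ta.1282.2.S1_x_at (adjusted p = 1.89e-05).

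At stage 3.0 the gap was widest. LTP3 was 2.51 in both cold arrays against 11.65 and 10.79 in control arrays, a change of -8.71 ± 0.70 (limma, adjusted p = 8.51e-07). The 5D gene was 3.93 and 4.08 in cold arrays against 13.07 and 12.66 in control arrays, a change of -8.86 ± 0.61 (limma, adjusted p = 2.18e-07). The 5A gene changed by -7.53 ± 0.46 on Ta.1282.2.S1_at and by -7.25 ± 0.49 on Ta.1282.2.S1_x_at (limma, adjusted p = 7.53e-08 and 1.97e-07). In order of the most negative change among the 13805 probe sets, the 5D gene was at rank 35, LTP3 at 38 and the 5A probe sets at 64 and 74. As the members were tested only because they were high in late control anthers, these ranks are a description and no test. As ratios of the fitted values the members were 152-fold to 463-fold lower in the cold, but a ratio against a value near the lower limit depends on where that limit lies. When the cold level was set at the mean 60th percentile of the cold arrays, the level at which a probe set was counted as on, LTP3 was at least 18.1-fold lower, the 5D gene at least 56.6-fold, and the 5A gene at least 58.1-fold and 91.8-fold on its 2 probe sets.

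**Figure D2:**
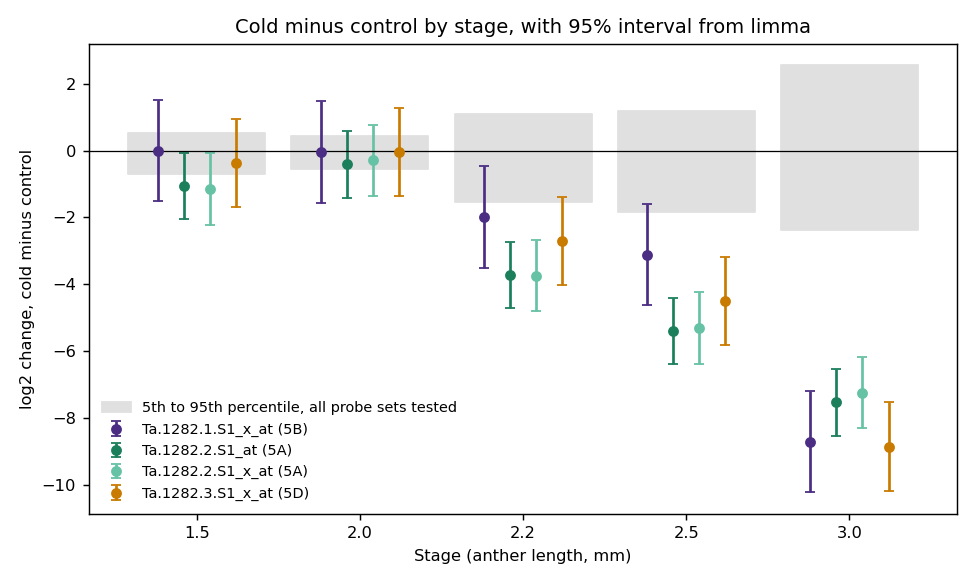
Log2 change, cold minus control, at each stage (anther length in mm) for the 4 probe sets, with 95% intervals from limma (2 cold and 2 control arrays per stage, spread estimated over 20 arrays). Grey bars span the 5th to 95th percentile of all 13805 probe sets tested at that stage. The changes lie between -1.15 and 0.00 at stages 1.5 and 2.0 and between -8.86 and -7.25 at stage 3.0.

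The cold effect had a larger mean at the 3 later than at the 2 earlier stages in all members. The mean effect at the 3 later stages (2.2 onward) minus that at the 2 earlier ones was -4.58 for LTP3 (limma, adjusted p = 0.00042), -4.81 and -4.71 for the 5A probe sets (adjusted p = 1.51e-05 and 3.51e-05) and -5.15 for the 5D gene (adjusted p = 7.47e-05), and 7.16% of all probe sets were called in that direction. The step to stage 2.2 differed between cold and control anthers by -3.31 and -3.45 for the 5A probe sets (limma, adjusted p = 0.0299 and 0.0336), with 1.1% of all probe sets called. The same difference was -1.95 for LTP3 (adjusted p = 0.341) and -2.66 for the 5D gene (adjusted p = 0.142), and neither was called. Leaving out single arrays gave between 0 and 3 called members for this step, and none was called once 1 of 6 arrays was left out, namely any of the 4 cold arrays of stages 2.0 and 2.2, the 12 h control array of stage 2.0 and the 14 h control array of stage 2.2. The step to stage 3.0 differed by -5.59 for LTP3 (adjusted p = 0.00134), -4.35 for the 5D gene (adjusted p = 0.0029) and -2.14 for Ta.1282.2.S1_at (adjusted p = 0.0356), and by -1.94 for Ta.1282.2.S1_x_at, which was not called (adjusted p = 0.0748). Here 5.98% of all probe sets were called, and leaving out single arrays gave between 2 and 4 called members. The comparisons of this paragraph share their arrays with those above and are not independent of them. The members passed the filter through late control anthers alone, so the differences and their p-values describe them and are no independent support. LTP3 held 2.51 in all 4 early control arrays, which left almost no room for a fall in the cold there.

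The oldest cold anthers were also set against control anthers of every stage, to find where on the control course their levels fell. Cold anthers of stage 3.0 did not differ by a call from control anthers of stages 1.5 and 2.0, with changes between 0.00 and 1.10 log2 units, where 1.84% and 0.029% of all probe sets were called lower. Against control anthers of stage 2.2, 3 of 4 members were lower, where 2.98% of all probe sets were. The changes were -2.62 and -2.203 for the 5A probe sets (limma, adjusted p = 0.00776 and 0.0249), -2.67 for the 5D gene (adjusted p = 0.0264) and -1.995 for LTP3 (adjusted p = 0.133). The count ranged from 0 to 4 when single arrays were left out, with 0 called without the 14 h cold array of stage 3.0 or the 14 h control array of stage 2.2 and 1 called without the 12 h array of either. Against control anthers of stage 2.5, 4 of 4 were lower, with changes of -3.07 for LTP3 (limma, adjusted p = 0.0111), -3.69 and -3.17 for the 5A probe sets (adjusted p = 0.000304 and 0.00124) and -3.80 for the 5D gene (adjusted p = 0.00152), beside 7.03% of all probe sets. With dim values raised to the 40th percentile of each array, the 5D gene lost its call against stage 2.2 (-1.24, limma, adjusted p = 0.219). In the same setting LTP3 lost its call against stage 2.5 (-0.98, limma, adjusted p = 0.0842). In their level of the cluster, cold anthers of 3.0 mm were thus called below control anthers of 2.2 mm for 3 probe sets, of the 5A and 5D genes. These calls rested on single arrays, and that of the 5D gene also on dim values. A difference for LTP3 was not detected against the dim control values of that stage.

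Photoperiod was examined within each temperature, since each temperature and stage had 1 array with 14 h and 1 with 12 h of light. In control anthers all 4 members had higher values with 14 h than with 12 h of light at each of the 3 later stages, as did 20.6% of all probe sets. For LTP3 the differences were 1.55, 3.32 and 0.86 log2 units in stage order, and for the 5D gene 1.21, 2.56 and 0.41. For the 5A gene they were 1.34, 1.41 and 0.58 on Ta.1282.2.S1_at and 0.90, 1.67 and 0.09 on Ta.1282.2.S1_x_at. The widest gap was at stage 2.5 for each probe set, which is also where LTP3 and the 5D gene were on with 14 h of light and off with 12 h.

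Over the 5 stages of control anthers the photoperiod term was 1.14 for LTP3 (limma, adjusted p = 0.163), 0.71 and 0.64 for the 5A probe sets (adjusted p = 0.202 and 0.256) and 0.96 for the 5D gene (adjusted p = 0.145). No member was called, where 0.0652% of all probe sets were called higher. In cold anthers the term was 0.04 for LTP3, 0.19 and -0.10 for the 5A probe sets and -0.22 for the 5D gene, with none called beside 0.283% of all probe sets called higher. The photoperiod term of cold minus that of control anthers was -1.11 for LTP3, -0.52 and -0.73 for the 5A probe sets and -1.18 for the 5D gene (limma, adjusted p between 0.150 and 0.419), with none called beside 0% of all probe sets called lower. When the term was fitted separately for stages 2.2 to 3.0, a choice made after the data were seen, the 14 h arrays of control anthers were higher by 1.91 for LTP3 (limma, adjusted p = 0.0520), 1.11 and 0.89 for the 5A probe sets (adjusted p = 0.0912 and 0.189) and 1.39 for the 5D gene (adjusted p = 0.0755), with none called beside 0.471% of all probe sets. In that fit the photoperiod term of cold minus that of control anthers was -1.77 for the 5D gene, which was called (limma, adjusted p = 0.0451). The same difference was -1.88 for LTP3 (adjusted p = 0.0508) and -0.80 and -1.09 for the 5A probe sets (adjusted p = 0.237 and 0.158). None of these 3 was called, beside 5.39% of all probe sets called lower. The cold values of the 5D gene were all off, and this fit was not repeated with dim values raised or arrays left out. Without replicate arrays within a photoperiod, the difference at any single stage was not tested.

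**Figure D3:**
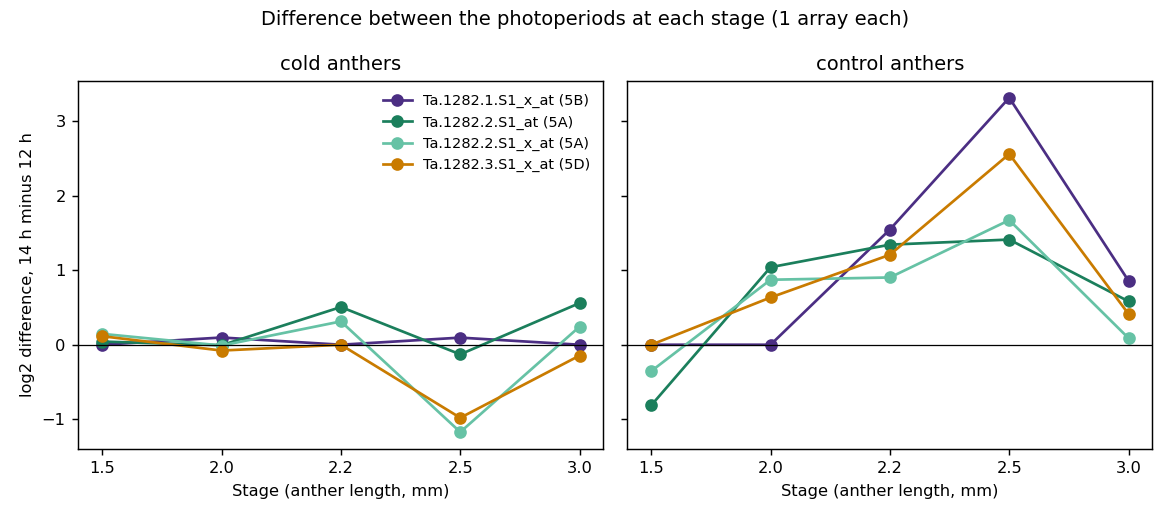
Log2 difference between the array with 14 h and the array with 12 h of light at each stage (anther length in mm), in cold anthers (left) and control anthers (right), for the 4 probe sets. In control anthers all points from stage 2.2 onward lie above 0, with the highest, 3.32, for LTP3 at stage 2.5.

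The members resembled each other over the 20 arrays, with Pearson correlations between 0.949 and 0.996. These describe profiles that share arrays and the rise at stage 3.0. Probe sets whose names end in _x_at can bind transcripts of related genes, and 3 of the 4 are of that kind, so how much of each signal came from each of the 3 genes is not known. LTP3 was closest to the 5D gene (0.988) and less close to the 5A gene (0.951 and 0.949).

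Outside the cluster, 143 of 13801 probe sets had a correlation above 0.95 with LTP3 over the 20 arrays. The 5 closest were Ta.1725.2.S1_at (0.994), Ta.5750.1.S1_at (0.991), Ta.13247.2.S1_a_at (0.991), Ta.4035.2.S1_x_at (0.990) and Ta.5650.2.S1_x_at (0.990), none of which carries a gene name in the tables used here. Ta.1725.2.S1_at was at 2.28 in all 10 cold arrays, the lowest value of the arrays, and between 9.55 and 9.58 in control arrays of stage 3.0. All 5 were called lower in the cold at stage 3.0, by 3.80 to 8.23 log2 units, and as their likeness used the same arrays this describes them without testing anything further. Among probe sets with a gene symbol, the closest were LOC543329 (Ta.137.1.S1_at, 0.981), LOC543398 (Ta.21038.1.S1_at, 0.978), COMT1 (Ta.336.1.S1_x_at, 0.976), GAPN (Ta.511.1.S1_at, 0.971) and LOC543216 (Ta.21055.1.S1_at, 0.968). COMT1 encodes caffeic acid O-methyltransferase, an enzyme of phenylpropanoid and lignin synthesis, and GAPN the non-phosphorylating glyceraldehyde-3-phosphate dehydrogenase. COMT1 differed from LTP3 in being on throughout, with cold values between 8.10 and 8.48 against 12.49 to 12.75 in control anthers of stage 3.0 (limma, change -4.22, adjusted p = 1.79e-07). The profile of LOC543329 was closest to the 5D gene (0.994), and its change at stage 3.0 was -6.42 (limma, adjusted p = 1.14e-07).

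**Figure D4:**
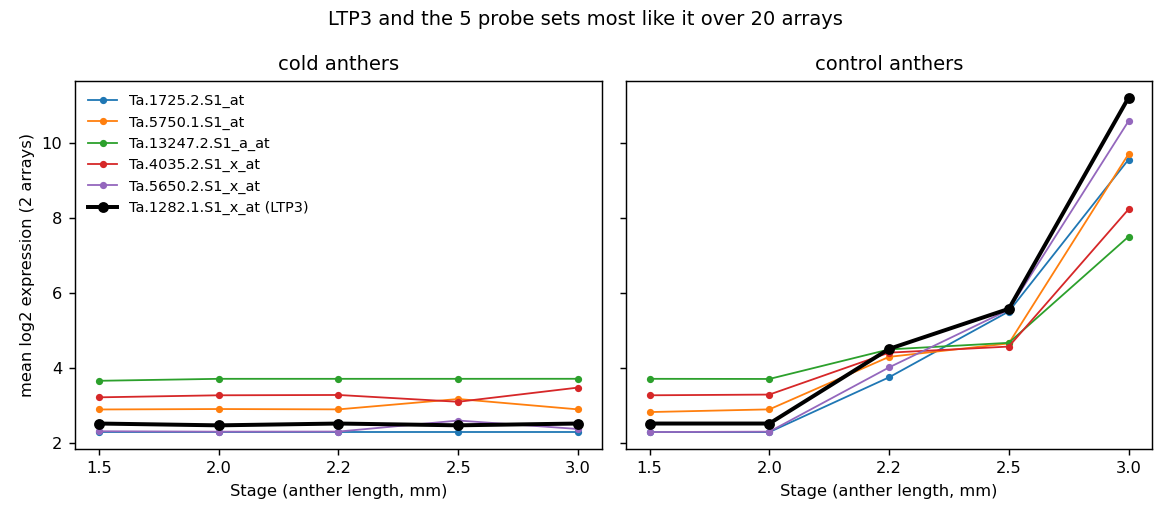
Mean log2 expression of 2 arrays against stage (anther length in mm) for LTP3 and the 5 probe sets most like it over 20 arrays, in cold anthers (left) and control anthers (right). All 6 stay below 3.71 in the cold, and in control anthers all 6 have their highest mean at stage 3.0, 11.22 for LTP3.

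LTP3 was the only probe set that the annotation names as a lipid transfer protein, so the family as a whole was not described. Markers of anther cell types were set beside the cluster. Raftin, a tapetum protein of the pollen wall, was on in all arrays on its 4 probe sets, with values between 7.70 and 14.10. Of these, 4, 1 and 0 were called lower in the cold at the 3 later stages in order, beside 7.47%, 10.6% and 13.3% of all probe sets. The median changes of the raftin probe sets were -1.80, -1.26 and -0.96. The summed level of the raftin probe sets (log2 of the sum) was 14.12 to 14.77 in cold against 15.29 to 15.58 in control anthers of stage 3.0. That of 3 probe sets for pollen markers (profilin and the amylase gene amy1) was 13.14 to 13.41 in cold against 14.78 to 15.07 in control anthers of the same stage. Of these, amy1 changed by -3.66 (limma, adjusted p = 0.000748), and the profilin probe sets differed by -0.13 and -0.15 and were not called (adjusted p = 0.457 and 0.371). For 14 histone H2A and H2B probe sets, markers of dividing cells, it was 15.45 to 15.46 in cold against 12.79 to 13.40 in control anthers. For 15 probe sets of photosynthesis genes, markers of the green anther wall of which 8 passed the filter, it was 15.85 to 15.87 in cold against 16.05 to 16.16 in control anthers. This sum hides unlike changes at stage 3.0. Of the probe sets tested, PRK changed by -2.16 and FBP by -2.27 (limma, adjusted p = 0.00100 and 0.00142). Those of rbcL and OEE2 changed by -0.59 to -0.13 and were not called. The part that such shifts between cell types had in the change of the LTP3 cluster was not tested. On a wider list of 17 photosynthesis probe sets, 10 were tested. Of these, 5, 5 and 2 were lower in the cold at the 3 later stages in order, beside 7.47%, 10.6% and 13.3% of all probe sets. Of 11 reference gene probe sets 1 was higher at stage 2.2, beside 4.53% of all probe sets, and 1 lower at stage 3.0, beside 13.3%.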

How the data were processed

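The authors deposited log2 expression values from 20 Affymetrix Wheat Genome arrays, 1 column per array. Per the labels MAS5 was used. Neither its version nor a scaling step is given in these sources. They also do not explain the lowest value shared by all arrays or the values repeated exactly between arrays. The step that set the lower limit is therefore not known. No value was changed. Of 28895 entries, 1 reporter control was left out, and 13805 probe sets with a value above the array's 60th percentile in each array of some group were tested. Models were fitted with limma 3.58.1 in R 4.3.3, with a mean for each temperature and stage, a common photoperiod term, 9 residual degrees of freedom and moderated variances with a trend, after testing on simulated data. Photoperiod within temperatures had 8 residual degrees of freedom, and 6 when split into early and late stages. The number of arrays limits the precision. Gene symbols covered 845 probe sets, 844 matched by gene ID. All probe sets of the cluster were named, and the 5 most like LTP3 with and without a symbol. The members and lists were chosen with earlier results of these data known. Alternatives were quantile scaling, other filters, raised dim values, other photoperiod terms, the thresholds of the study and leaving out arrays. No cold-responsive gene matched its list, and the 2 profilin probe sets of the pollen list were called at no stage. Sequences were not used here.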

Additional observations from a re-analysis of the deposited data

Results flagged for a closer look

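The cold effect differed between later and earlier stages by -4.58 for LTP3, -4.81 and -4.71 for the probe sets of the 5A gene (Ta.1282.2.S1_at and Ta.1282.2.S1_x_at) and -5.15 for the 5D gene, each by the limma test of that difference (adjusted p between 1.51e-05 and 0.00042). All members passed the filter through late control anthers alone, so these values describe them and are no independent support. The step from stage 2.0 to stage 2.2 differed between cold and control anthers by -3.31 and -3.45 for the 5A probe sets (limma, adjusted p = 0.0299 and 0.0336). Both belong to the same gene, and leaving out single arrays gave between 0 and 3 called members for this step. The step from stage 2.5 to stage 3.0 differed by -5.59 for LTP3 (limma, adjusted p = 0.00134), by -2.14 for Ta.1282.2.S1_at (adjusted p = 0.0356) and by -4.35 for the 5D gene (adjusted p = 0.0029). The photoperiod term of stages 2.2 to 3.0 differed between cold and control anthers by -1.77 for the 5D gene (limma, adjusted p = 0.0451), in a fit added after the data were seen.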

How the results depend on the processing

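At stages 2.5 and 3.0 all 4 members were called lower in the cold, and all 4 rose in control anthers at stage 3.0, whichever single array was left out. The labels give no replicate numbers, and cold and control arrays were matched by photoperiod, which the model held as a term.

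The thresholds of the study were set on the pooled fit, and not on A against E and B against F apart as in the study. They gave 2 members lower in the cold at stage 1.5 and 4 at stage 2.2, where LTP3 passed as well. They also gave 1 higher in control anthers at stage 2.5 against 2.2 and 2 higher in cold anthers at stage 3.0 against 2.5. Without both control arrays of stage 3.0, LTP3 and the 5D gene did not pass the filter, so 2 members were called at stage 2.5 and 2 for cold anthers of stage 3.0 against control anthers of stage 2.5. The same arrays left out without the filter gave 4 and 4 there, 3 at stage 2.2, and 1 for cold anthers of stage 3.0 against control anthers of stage 2.2. The differing step to stage 2.2 was called for 1 member with no filter or no photoperiod term and for 0 without both control arrays of stage 3.0, with or without the filter. Cold anthers of stage 3.0 against 1.5 gave 1 member with no filter, no photoperiod term or without both control arrays of stage 3.0, and 0 with dim values raised to the 40th percentile or without those arrays and the filter. When on meant 1 log2 unit above the lowest value, LTP3 was on in 6 control arrays, and the other probe sets were on in 10 control arrays each, the 5A probe sets in 10 cold arrays and the 5D gene in 9. Above the 50th percentile, Ta.1282.2.S1_x_at was on in 1 cold array. The counts of arrays that were on therefore depend on this limit.

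Leaving out single arrays gave 2 to 4 members lower in the cold at stage 2.2, 0 to 2 higher in control anthers at stage 2.5 against 2.2, 0 to 3 for the differing step to stage 2.2, 2 to 4 for that to stage 3.0, 0 to 2 for cold anthers of stage 3.0 against 1.5, 0 to 4 and 3 to 4 for cold anthers of stage 3.0 against control anthers of stages 2.2 and 2.5, and 0 to 1 for photoperiod in control anthers.

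Directions turned only where no call was made. Quantile normalization gave 0.0014 for the 5D gene at stage 2.0. Values raised to the 40th percentile gave 0.0042 for LTP3 at stage 2.2, -0.022 for its control step and 0.061 for its differing step to that stage, -0.091 for the 5D gene in cold anthers of stage 3.0 against 1.5, and photoperiod terms in cold anthers of -0.024 for LTP3 and 0.067 for Ta.1282.2.S1_x_at. Over single arrays left out, the change at stage 2.0 ranged from -0.38 to 0.28 for LTP3, -0.63 to 0.040 for Ta.1282.2.S1_x_at and -0.30 to 0.20 for the 5D gene. The control step to stage 2.5 ranged over -0.44 to 2.59 for LTP3 and -0.090 to 2.34 for the 5D gene, which were called without the 12 h control array of stage 2.5, and the photoperiod term in cold anthers over -0.20 to 0.17 for Ta.1282.2.S1_x_at. The causes were not tested.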
